A study of Mus musculus with 2 samples.

Results

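Dividing microglia in intracranial CT-2A gliomas, which grow from an implanted mouse tumour line, were chosen by their transcripts. A microglial barcode had at least 3 unique molecular identifiers (UMIs, transcript tags) from P2ry12, Tmem119, Sall1, Gpr34, Olfml3 and Crybb1, more of these than of the monocyte and macrophage genes Ccr2, Ly6c2, Ms4a7 and Chil3, and none from Cd3e, Cd3d or Cd3g. It was counted as dividing when Mki67, Top2a, Cdk1, Birc5 and Ube2c together gave at least 3 UMIs, and as non-dividing at 2 or fewer. The rule found 649 dividing cells among 23660 barcodes, 142 in the Glut5 KO library and 507 in the wildtype library. The same gate held 1136 non-dividing Glut5 KO cells and 1431 non-dividing wildtype cells.

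The Glut5 KO group lacks the fructose transporter encoded by Slc2a5, and the wildtype group is its control. Both carried CT-2A cells implanted intracranially, and tumours were taken after 14 days. CD45+ cells were pulled out with magnetic beads, and 16000 cells per genotype were loaded for droplet sequencing from transcript 5′ ends. The sample labels give the genotype as KO, while the design text calls it a knockdown. The sources used here do not give the deleted exons, whether other cells than microglia carry the deletion, or how many animals of which sex were used. There was 1 library per genotype, so there is no test or p-value, and genotype cannot be told apart from library batch. Values in brackets are exact 95% intervals, for counting error alone.

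Microglia are the resident macrophages of the brain. They renew themselves by division within the tissue, under signals through the CSF1 receptor, and divide more when the brain is injured or holds a tumour. A dividing cell first copies its DNA in S phase, with the MCM helicase opening the duplex and ribonucleotide reductase supplying deoxynucleotides. In G2 and mitosis it then turns on cyclin B, Polo-like and Aurora kinases, kinesin motors and the anaphase-promoting complex, which pull the chromosomes apart and end the division.

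The Glut5 KO library held 12165 barcodes and 96851696 UMIs, and the wildtype library held 11495 barcodes and 116105873 UMIs. After removal of barcodes with under 300 genes or at least 10% mitochondrial UMIs, 12112 Glut5 KO and 11473 wildtype barcodes were kept, with medians of 6523.5 and 8682 UMIs. Dividing microglia had medians of 15414 UMIs in Glut5 KO and 16015 UMIs in wildtype, against 7764 and 8989 UMIs in non-dividing microglia. Cells with Xist and cells with Y-linked transcripts were found in either library, so neither came from animals of 1 sex. The libraries shared 185 kept barcode sequences, and no barcode was a dividing microglial cell in both.

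The cells carried microglial transcripts that the gate did not use. Of 10 microglial genes outside the gate, 9 had UMIs in dividing Glut5 KO cells, where Slc2a5 was at 0, and 10 in dividing wildtype cells. Of the same genes, 8 had UMIs in dividing Glut5 KO and 9 in dividing wildtype macrophages, so levels rather than presence tell the classes apart. Siglech, a sialic acid receptor gene typical of microglia, stood at 93.9 CPM (counts per 1000000 UMIs of the group) in dividing Glut5 KO microglia and 78.6 CPM in dividing wildtype microglia. In dividing macrophages, chosen by the 4 monocyte and macrophage genes and the same 5 cycle genes, it was 10.6 CPM in Glut5 KO and 6.78 CPM in wildtype. Sparc, a matrix protein gene, stood at 739 CPM in dividing Glut5 KO and 581 CPM in dividing wildtype microglia, against 17.8 CPM and 44.1 CPM in dividing macrophages. Cx3cr1, the fractalkine receptor, stood at 482 CPM in dividing Glut5 KO and 411 CPM in dividing wildtype microglia, against 229.7 CPM and 258 CPM in dividing macrophages. The gate genes chose the cells, so their presence is a description. Tmem119, a microglial membrane protein gene of the gate, was present in 95.1% of dividing Glut5 KO and 92.7% of dividing wildtype cells. P2ry12, the purine receptor that steers microglial processes, was present in 69.0% and 60.6%, and Crybb1, a crystallin gene, in 34.5% and 36.9%. Barcodes with at least 3 T cell UMIs, which should lack these genes, had Tmem119 in 19.3% of 1070 Glut5 KO barcodes (median 9821 UMIs) and 36.6% of 822 wildtype barcodes (median 13682 UMIs). With the T cell rule of the gate left aside, 3.18% of those Glut5 KO and 3.77% of those wildtype T cell barcodes passed its microglial and macrophage rules.

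Monocyte and macrophage transcripts were also present, and more so in wildtype. The 4 monocyte and macrophage genes of the gate gave a median of 1 UMI per dividing Glut5 KO cell and 3 per dividing wildtype cell, against 0 in non-dividing cells of both libraries. The 18 further monocyte and macrophage markers summed to 3625 CPM in dividing Glut5 KO and 4908 CPM in dividing wildtype microglia. In non-dividing microglia they summed to 3266 CPM in Glut5 KO and 4014 CPM in wildtype, and in dividing macrophages to 5769 CPM and 7476 CPM. Border-associated macrophage markers summed to 68.8 CPM and 169 CPM, with Cd163, Lyve1 and Cd209a at 0 in dividing Glut5 KO and Lyve1 at 0 in dividing wildtype cells. T and NK cell markers stood at 33.1 CPM and 51.6 CPM, and B and plasma cell markers at 299 CPM and 226 CPM. Dendritic cell markers summed to 1509 CPM in dividing Glut5 KO and 1470 CPM in dividing wildtype microglia, against 1653 CPM and 1317 CPM in dividing macrophages. Tumour, glial and stromal markers summed to 292 CPM and 343 CPM in dividing microglia, against 189 CPM and 186 CPM in dividing macrophages. In the 8% of barcodes with the highest doublet scores were 18 of 142 dividing Glut5 KO cells (12.7%) and 52 of 507 dividing wildtype cells (10.3%), against 7.92% and 6.15% of non-dividing cells. The part of mixed droplets in the results below was looked at by removing that top 8%, and by asking for no macrophage gate UMI. It was not tested beyond these and a stricter gate, whose list medians between genotypes are in the plot of list medians. Under that gate, which asks for at least 3 times as many microglial as macrophage UMIs, 96 dividing Glut5 KO and 279 dividing wildtype cells were left.

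The threshold of 3 cycle UMIs divides cells that lie close together. Exactly 3 cycle UMIs were found in 22 Glut5 KO and 53 wildtype cells, just inside the rule, and exactly 2 in 53 Glut5 KO and 111 wildtype cells, just outside it. At the far end, 100 Glut5 KO and 374 wildtype cells had 6 or more. The median dividing cell had 16 cycle UMIs in Glut5 KO and 14 in wildtype, with highest values of 106 and 166. On the microglial side of the rule, 5 dividing Glut5 KO and 19 dividing wildtype cells had exactly 3 microglial UMIs, and 7 and 30 further cells with enough cycle UMIs missed the rule with 2. Far more barcodes, 384 in Glut5 KO and 947 in wildtype, had at least 3 microglial and at least 3 cycle UMIs but were left out. Their microglial UMIs did not exceed those of the 4 monocyte and macrophage genes.

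**Figure D1:**
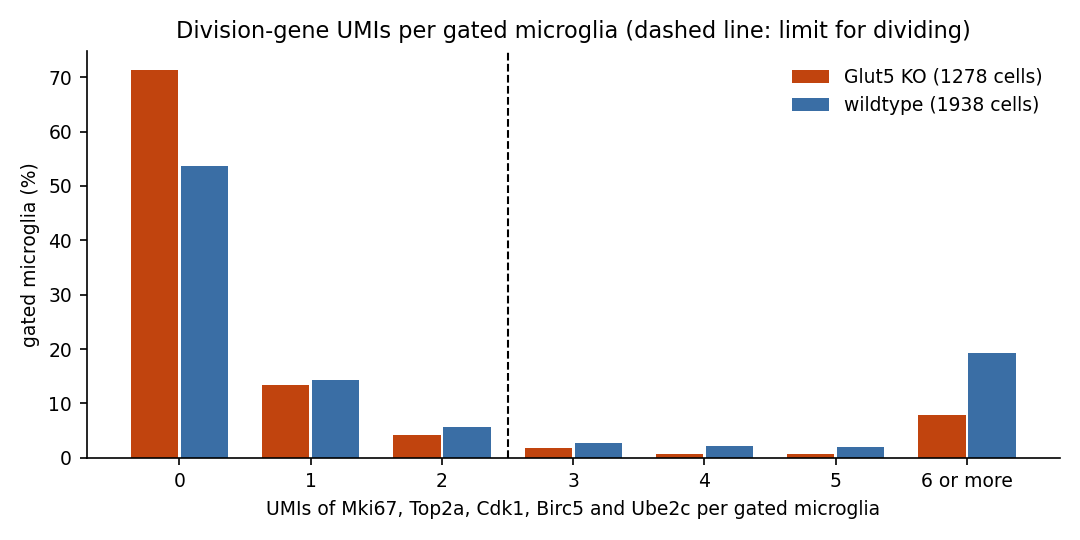
Percent of gated microglia (y axis) by number of UMIs of the 5 cycle genes per cell (x axis), for Glut5 KO (1278 cells) and wildtype (1938 cells). The line marks the rule at 3 UMIs, and most cells of both libraries lie at 0, with 911 Glut5 KO and 1041 wildtype cells there.

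The targeted gene was read first. Slc2a5 (ENSMUSG00000028976, chromosome 4, 150119283 to 150144169, GRCm38) had no UMI in any of 142 dividing Glut5 KO cells, which allows a share of cells with a UMI of up to 2.11%, or in any of 1136 non-dividing Glut5 KO cells, which allows up to 0.264%. These limits are on detection, since few wildtype cells show a UMI either. In dividing wildtype microglia it had 73 UMIs, or 9.07 CPM, in 56 of 507 cells (11.0% [8.45 to 14.1]). Non-dividing wildtype microglia stood at 20.03 CPM, with the transcript in 203 of 1431 cells (14.2%). Against a floor of 3 counts over the Glut5 KO group, the level was at least 6.76-fold lower in dividing and at least 67.6-fold lower in non-dividing Glut5 KO microglia. Wildtype macrophages had the transcript in 16 of 6189 cells (0.259%). No wildtype T cell (69) or migratory dendritic cell (292) had it, which allows up to 4.35% and 1.03%. These T cells and dendritic cells were chosen to have no microglial gate UMI, and their medians were 4378 and 4881.5 UMIs.

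Dividing wildtype microglia had less of the transporter transcript than their non-dividing neighbours, both in CPM and per cell. Slc2a5 gave 0.144 UMIs per dividing and 0.193 per non-dividing wildtype cell. With every cell thinned to 1000 UMIs, 3 of 506 dividing wildtype cells (0.593%) and 39 of 1409 non-dividing wildtype cells (2.77%) kept an Slc2a5 UMI. Seen from the other side, 56 of 259 wildtype microglia with an Slc2a5 UMI were dividing (21.6% [16.8 to 27.1]), against 451 of 1679 without one (26.9% [24.8 to 29.1]). Between 8000 and 16000 UMIs per cell the shares were 16.7% [10.3 to 24.8] and 20.2% [17.1 to 23.6]. In both cases the intervals overlap, but they cover counting error alone, and a difference was not tested.

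The main comparison asked whether microglia divided as often in tumours of Glut5 KO mice as in those of wildtype mice. Of gated microglia, 142 of 1278 in Glut5 KO were dividing (11.1% [9.44 to 12.96]), against 507 of 1938 in wildtype (26.2% [24.2 to 28.2]). The ratio was 0.425 [0.350 to 0.513], a log2 ratio of −1.24, and under the stricter gate the log2 ratio was −1.19. The 5 cycle genes make up the rule, and their single values are given as its parts. Mki67, which coats mitotic chromosomes, was present in 10.3% of gated Glut5 KO and 22.2% of gated wildtype cells, and Top2a, which untangles DNA, in 11.7% and 21.7%. Cdk1, the kinase that starts mitosis, was present in 16.2% and 29.1%, Birc5 (survivin) in 10.7% and 25.7%, and Ube2c, an enzyme of the anaphase-promoting complex, in 12.4% and 25.3%. Of all kept barcodes, dividing microglia were 1.17% in Glut5 KO and 4.42% in wildtype, and all gated microglia were 10.6% and 16.9%.

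The share was lower in Glut5 KO in every band of depth. In cells with under 4000 UMIs, 13 of 339 Glut5 KO and 50 of 351 wildtype microglia were dividing (3.83% and 14.2%, ratio 0.269). In cells with at least 16000 UMIs, 64 of 224 Glut5 KO and 255 of 468 wildtype microglia were (28.6% and 54.5%, ratio 0.524). The bands between gave ratios of 0.536 and 0.495. Thinned to 1000 UMIs per cell, with 57 Glut5 KO and 23 wildtype cells too shallow to enter, 138 of 1221 Glut5 KO cells (11.3%) and 412 of 1915 wildtype cells (21.5%) kept at least 1 cycle UMI, a ratio of 0.525. Thinned to 2000 UMIs, 67 of 1113 Glut5 KO cells (6.02%) and 240 of 1789 wildtype cells (13.4%) kept at least 3. Of migratory dendritic cells, a class that has mostly left the cycle, 9 of 300 in Glut5 KO (3.0%) and 4 of 292 in wildtype (1.37%) passed the cycle threshold. These cells were chosen to have no microglial or T cell gate UMI and few macrophage gate UMIs. Their medians were 5185 UMIs in Glut5 KO and 4881.5 UMIs in wildtype, against 8509.5 and 10319 UMIs in gated microglia. They are therefore no matched background of free transcripts for microglia.

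The size of the difference varied with the sex of the cells. Among female cells (Xist without Y-linked UMIs), 79 of 510 Glut5 KO microglia (15.5%) and 150 of 644 wildtype microglia (23.3%) were dividing, a ratio of 0.665 [0.4999 to 0.879]. Among male cells the numbers were 27 of 271 (9.96%) and 205 of 581 (35.3%), a ratio of 0.282 [0.182 to 0.423]. Cells with no sex call gave 36 of 497 (7.24%) and 152 of 713 (21.3%). Dividing microglia were 55.6% female and 19.0% male in Glut5 KO, against 29.6% female and 40.4% male in wildtype. As the animals are not labelled, sex and animal cannot be told apart.

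Tumour macrophages, the nearest dividing cells, showed the same direction with a smaller gap. Dividing cells were 604 of 5846 Glut5 KO macrophages (10.3%) and 1073 of 6189 wildtype macrophages (17.3%), a ratio of 0.596 [0.538 to 0.659]. Over all cells at full depth the interval lies above that of microglia, which ends at 0.513. Within female cells the macrophage ratio was 0.814 [0.702 to 0.943] and within male cells 0.417 [0.338 to 0.511], and with cells thinned to 1000 UMIs it was 0.697 [0.623 to 0.780] against 0.525 [0.430 to 0.639] in microglia. Each of these 3 intervals overlaps that of microglia. Thinned to 2000 UMIs with at least 1 cycle UMI, the ratios were 0.714 [0.649 to 0.784] in macrophages and 0.534 [0.444 to 0.638] in microglia, without overlap. With at least 3 cycle UMIs they were 0.596 [0.511 to 0.694] and 0.449 [0.337 to 0.591], which overlap. The difference between the classes has no replicate check. T cells, few in number under this gate, gave 36 of 173 in Glut5 KO (20.8%) and 12 of 69 in wildtype (17.4%).

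**Figure D2:**
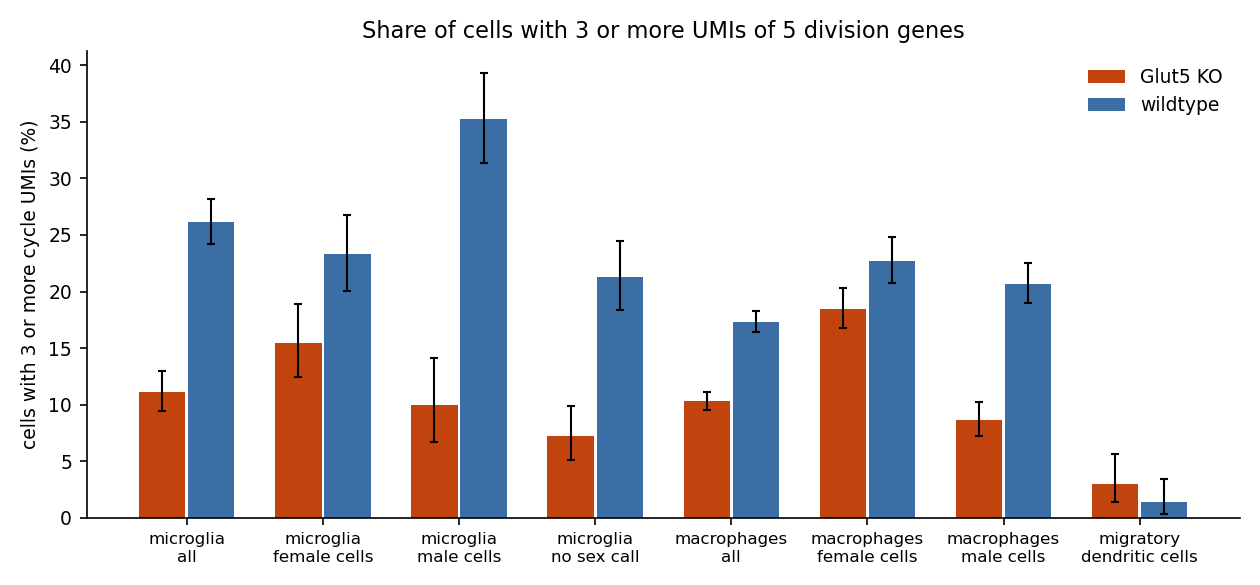
Percent of cells that passed the threshold of 3 cycle UMIs (y axis) in each class and sex, Glut5 KO left of wildtype, with exact 95% Clopper-Pearson intervals as bars. Microglia stand at 11.1% in Glut5 KO and 26.2% in wildtype, and macrophages at 10.3% and 17.3%.

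Where the cells stood in the cycle was compared with S phase and G2/M lists that leave out the 5 gate genes. More S phase than G2/M UMIs were found in 21 of 142 dividing Glut5 KO cells (14.8% [9.39 to 21.7]) and 85 of 507 dividing wildtype cells (16.8% [13.6 to 20.3]). The intervals overlap, but they cover counting error alone, and their overlap is no test of a difference. Without replicate libraries, a difference between genotypes in the balance of phases was not tested. In dividing macrophages the shares were 19.9% and 22.4%. Summed over dividing cells, the S phase list stood at 3405 CPM in Glut5 KO and 3581 CPM in wildtype, and the G2/M list at 9924 CPM and 9535 CPM. The 5 gate genes are known for expression from late S phase into mitosis, and cells in G1 or early S phase can fall outside the rule.

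**Figure D3:**
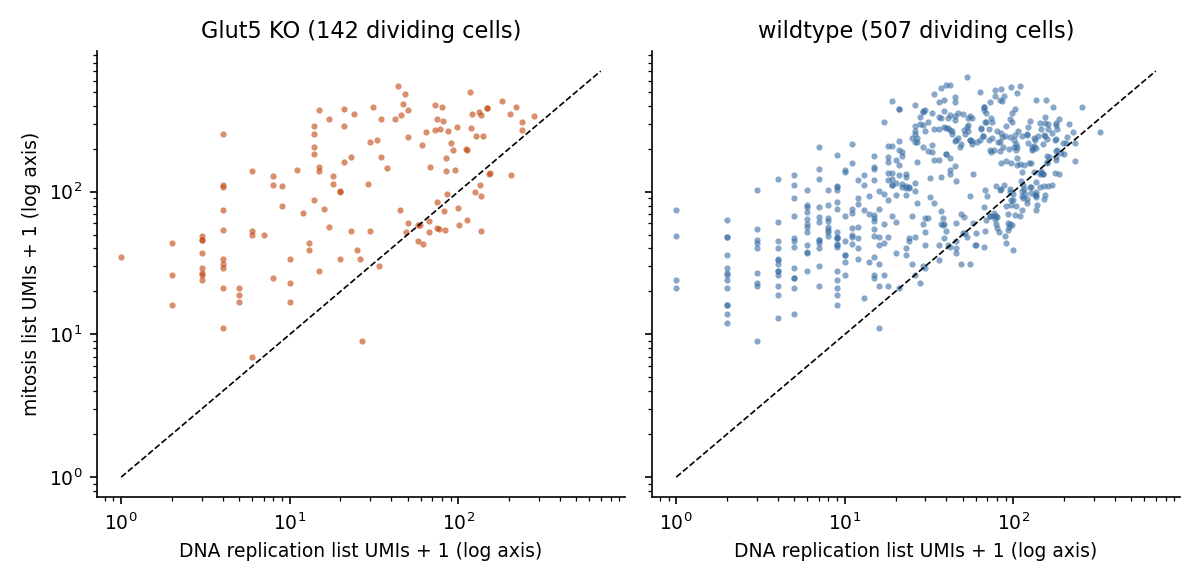
UMIs of the S phase list (x axis) and of the G2/M list (y axis) per dividing cell, Glut5 KO left of wildtype, on log axes after adding 1. Cells of both libraries fill the same area, with median S phase UMIs of 29.5 in Glut5 KO and 38 in wildtype and median G2/M UMIs of 110 and 108.

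Such early cells were sought among non-dividing microglia by the MCM helicase, Mcm2 to Mcm7, whose subunits are loaded and expressed before S phase. At least 3 UMIs of these 6 genes were found in 120 of 1136 non-dividing Glut5 KO cells (10.6%) and 328 of 1431 non-dividing wildtype cells (22.9%), a ratio of 0.461 [0.371 to 0.570]. These cells were not thinned and had medians of 7764 UMIs in Glut5 KO and 8989 UMIs in wildtype. The part of depth in that ratio was not tested. Among dividing cells, at least 3 UMIs of the helicase genes were found in 57.0% in Glut5 KO and 65.3% in wildtype. At least 3 UMIs of the mitotic genes Ccnb1, Plk1, Cdc20, Aurka and Cenpa were found in 55.6% of dividing Glut5 KO and 61.1% of dividing wildtype cells, against 0.352% and 1.54% of non-dividing cells. The rule for non-dividing cells asks for few transcripts of genes from the same phase as the mitotic ones, so their low share there is a description.

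Dividing cells were next set against non-dividing cells within each library. Because cycle genes chose the cells, every value of this contrast is a description, and nothing is supported with it. Mitotic genes stood furthest from 0. Plk1, the Polo-like kinase that drives mitotic entry, had 84.0 CPM in dividing and 0.494 CPM in non-dividing Glut5 KO cells, and 87.5 CPM in dividing and 1.09 CPM in non-dividing wildtype cells. Hmmr, a spindle protein gene, had 54.1 CPM and 0.494 CPM in Glut5 KO, and 52.3 CPM and 0.508 CPM in wildtype, log2 ratios of 6.64 and 6.59. Kif11, the kinesin that pushes spindle poles apart, had 57.7 CPM and 0.889 CPM in Glut5 KO, and 65.5 CPM and 0.798 CPM in wildtype. Ccnb1, cyclin B1, had 77.3 CPM and 0.790 CPM in Glut5 KO, and 93.8 CPM and 1.31 CPM in wildtype. The other genes at the top by the lower of both libraries' ratios were Pbk, Ccna2, Prc1, Nusap1, Cenpf, Kif22, Cdc20, Tpx2, Cdca8, Knl1 and Cenpe, all of the spindle, kinetochore or mitotic control.

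Of all genes with at least 100 UMIs in both states together, 6.58% were at least 2-fold higher in dividing Glut5 KO cells and 2.04% at least 2-fold lower, against 6.08% and 1.30% in dividing wildtype cells. In both libraries at once, 600 of 10602 genes (5.66%) were at least 2-fold higher and 97 (0.915%) at least 2-fold lower. For list members the minimum was 20 UMIs, where 10.7% of genes were at least 2-fold higher in dividing Glut5 KO and 7.61% in dividing wildtype cells, and 3.67% and 2.95% at least 2-fold lower. The median over all those genes was 0.19 in Glut5 KO and 0.12 in wildtype on the log2 scale. Scaling by TMM, which centres the bulk of genes, moves all log2 ratios of this contrast by −0.24 in Glut5 KO and −0.13 in wildtype.

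The mitosis list had a median log2 ratio of 5.17 in Glut5 KO and 4.80 in wildtype, with 65 of 66 members at least 2-fold higher in each library. The exception was Pttg1 (securin), which holds separase inactive until anaphase, at 0.23 in Glut5 KO and 0.06 in wildtype. The S phase list stood at 2.61 and 2.08, with 49 of 50 members at least 2-fold higher in Glut5 KO and 47 of 50 in wildtype. Rrm2, the regulated subunit of ribonucleotide reductase, led it in Glut5 KO at 5.43 and stood at 4.54 in wildtype, and Pclaf, a PCNA partner, stood at 5.38 and 4.69. Replication-dependent histones stood at 2.61 and 2.47, with 15 of 17 and 21 of 23 members at least 2-fold higher. Cell cycle control genes stood at 1.23 and 1.16, with 22 of 37 and 20 of 39 members at least 2-fold higher. In that list Foxm1, the transcription factor of G2 genes, stood at 5.19 and 4.87 and the anaphase inhibitor gene Fbxo5 at 5.33 and 5.53. Ccnd1, cyclin D1 of the G1 phase, stood at 0.08 and 0.10, with 161 CPM and 166 CPM in dividing and 153 CPM and 155 CPM in non-dividing Glut5 KO and wildtype cells. The anti-proliferative Btg1 stood at −0.59 and −0.50. Nucleotide and one-carbon synthesis stood at 1.09 and 0.74, with 18 of 34 and 11 of 34 members at least 2-fold higher.

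Promoters of 4 of the 15 highest genes and of 2 helicase genes, picked as examples after their values were seen, are shown because mitotic genes are known to share a CCAAT box, bound by NF-Y, and a CHR element (TTTGAA), bound by the DREAM and MuvB complexes, while MCM genes are known for E2F sites. The 160 bases before the start are given on the gene's own strand, from RefSeq, build GRCm38.p6. Capitals mark the CCAAT box, the CHR element and 3 E2F-type words on either strand. On the opposite strand the CCAAT box reads ATTGG, and the CHR element there reads TTCAAA. The E2F-type words were TTTGGCGC, TTTCCCGC and TTTCGCGC, and they can overlap each other.
Plk1 (chr7:122159275-122159434, plus strand): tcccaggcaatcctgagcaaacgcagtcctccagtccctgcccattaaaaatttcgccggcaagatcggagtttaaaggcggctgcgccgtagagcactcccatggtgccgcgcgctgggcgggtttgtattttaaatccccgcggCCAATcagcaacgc
Kif11 (chr19:37376222-37376381, plus strand): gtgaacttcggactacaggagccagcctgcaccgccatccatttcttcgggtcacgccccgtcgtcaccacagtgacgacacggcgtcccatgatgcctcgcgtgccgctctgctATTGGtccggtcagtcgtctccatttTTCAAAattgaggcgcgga
Kif22 (chr7:127042421-127042580, minus strand): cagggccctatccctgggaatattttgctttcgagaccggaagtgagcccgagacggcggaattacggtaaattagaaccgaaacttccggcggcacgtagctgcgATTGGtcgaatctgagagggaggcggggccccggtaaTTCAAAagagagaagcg
Cdc20 (chr4:118437344-118437503, minus strand): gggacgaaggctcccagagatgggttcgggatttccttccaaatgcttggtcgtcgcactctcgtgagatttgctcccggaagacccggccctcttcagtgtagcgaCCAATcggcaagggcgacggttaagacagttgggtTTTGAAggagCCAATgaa
Mcm5 (chr8:75109349-75109508, plus strand): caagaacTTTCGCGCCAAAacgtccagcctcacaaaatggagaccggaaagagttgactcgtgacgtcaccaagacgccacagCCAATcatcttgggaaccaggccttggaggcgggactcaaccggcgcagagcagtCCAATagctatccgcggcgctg
Mcm6 (chr1:128359706-128359865, minus strand): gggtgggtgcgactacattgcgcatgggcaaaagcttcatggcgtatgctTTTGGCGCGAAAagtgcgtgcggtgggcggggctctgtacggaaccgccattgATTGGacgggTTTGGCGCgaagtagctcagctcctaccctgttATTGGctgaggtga

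All 6 windows held at least 1 CCAAT box. The CHR element was in those of Kif11, Kif22 and Cdc20, each a mitotic gene. E2F-type words were in those of Mcm5 (2) and Mcm6 (3), both helicase genes. Over 300 bases around the start, 46 of 60 promoters of the mitosis list (76.7%) held a CCAAT box on either strand, against 37.4% of all 32851 RefSeq promoters, and 43 of 60 (71.7%) held the CHR element, against 17.9%. Both words were in 58.3% of the mitosis promoters and 6.95% of all promoters. E2F-type words were in 6.67% and 1.84%, and in 0 of 13 promoters of the 15 highest genes. These promoters were matched for 55 of 66 mitosis genes (83.3%), and a word is not a bound site.

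**Figure D4:**
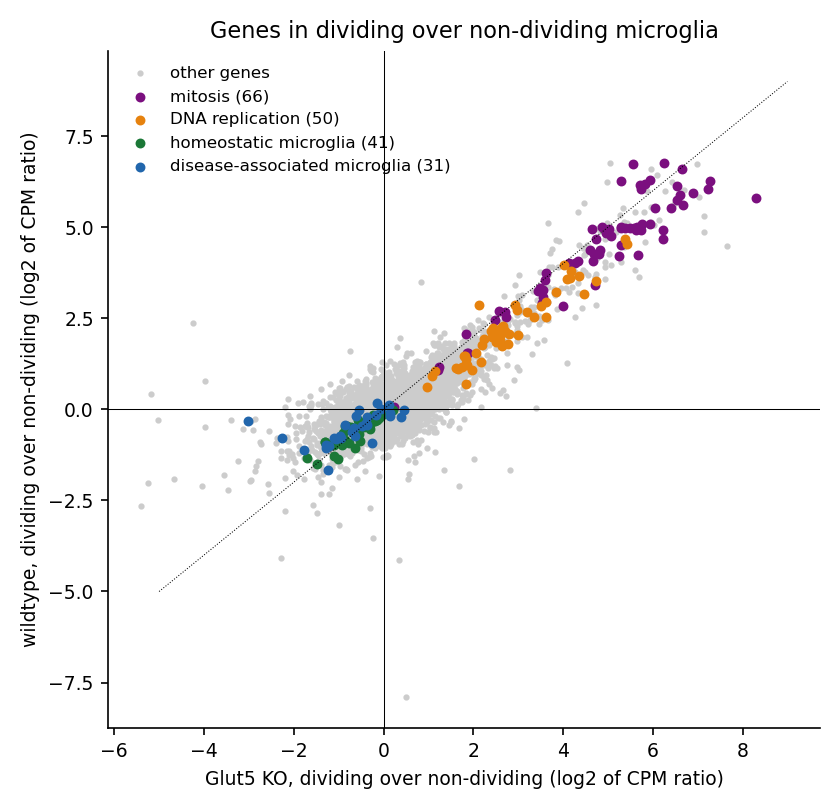
Log2 ratio of dividing over non-dividing microglia for each gene with at least 100 UMIs, Glut5 KO on one axis and wildtype on the other, with list members in colour. Mitosis and S phase members lie far along the diagonal, with list medians of 5.17 and 2.61 in Glut5 KO and 4.80 and 2.08 in wildtype, and homeostatic microglia genes lie below 0.

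Homeostatic microglia genes had lower levels in CPM in dividing cells. The list median was −0.58 in Glut5 KO, with 9 of 41 members at least 2-fold lower and 40 below 0, and −0.53 in wildtype, with 7 of 43 at least 2-fold lower and 43 below 0. Under the stricter gate the medians were −0.37 and −0.40. P2ry12 had 169.9 CPM in dividing and 394 CPM in non-dividing Glut5 KO cells, and 123 CPM and 271 CPM in wildtype, log2 ratios of −1.21 and −1.15. Gpr34, a lysophosphatidylserine receptor gene, stood at −1.50 and −1.52, the immune checkpoint gene Lag3 at −1.49 in both libraries, and Ltc4s, which makes a leukotriene, was also among the 15 lowest genes. P2ry12 and Gpr34 are genes of the microglial gate, which chose the cells of both states. All these levels are shares of a larger total in dividing cells, so fewer CPM need not mean fewer transcripts. Fcrls, an Fc receptor-like gene of microglia, stood at −0.22 and −0.16 by CPM, yet at 9.64 UMIs per dividing and 6.37 per non-dividing Glut5 KO cell, and 9.63 and 6.52 per wildtype cell. P2ry12 was lower per cell as well, with 2.68 UMIs per dividing and 3.51 per non-dividing Glut5 KO cell, and 1.94 and 2.61 in wildtype. Summed over the list, there were 350 UMIs per dividing and 349 per non-dividing Glut5 KO cell, and 324 and 310 in wildtype.

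Disease-associated microglia genes, a phagocytic signature first described around amyloid plaques, stood at −0.63 in Glut5 KO (9 of 31 at least 2-fold lower) and −0.47 in wildtype (4 of 31), and under the stricter gate at −0.57 and −0.40. Cst7, a cathepsin inhibitor gene, stood at −1.78 and −1.11, and Igf1, a growth factor gene, at −1.25 and −1.67. Spp1 (osteopontin) had 388 CPM in dividing and 1854 CPM in non-dividing Glut5 KO cells, against 681 CPM and 1178 CPM in wildtype. Trem2, the lipid receptor that sustains this state, stood at −1.18 and −0.95, with 10.8 UMIs per dividing and 13.8 per non-dividing Glut5 KO cell, and 9.43 and 11.0 in wildtype. Summed over the list, however, there were 759 UMIs per dividing and 696 per non-dividing Glut5 KO cell, and 775 and 662 in wildtype. Csf1r, the receptor for the growth signals CSF1 and IL-34, had 1125 CPM in dividing and 1607 CPM in non-dividing Glut5 KO cells, and 951 CPM and 1221 CPM in wildtype. Per cell it was higher in dividing cells, with 17.7 and 14.3 UMIs in Glut5 KO and 15.1 and 11.7 UMIs in wildtype. Apod, Mgp, Apoc1, Col1a1, Phyhd1, Serpine2, Rrad and Timp2 were also among the 15 lowest.

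Metabolic lists had medians from −0.20 to 0.58. Oxidative phosphorylation had a median of 0.35 in Glut5 KO and 0.22 in wildtype, with 0 of 70 members at least 2-fold higher in either library and 67 and 64 above 0. Cholesterol and lipid synthesis stood at 0.53 (6 of 27 at least 2-fold higher) and 0.58 (5 of 28), with the squalene epoxidase gene Sqle at 1.51 and 1.46. Ribosome biogenesis stood at 0.44 and 0.29, led by the nuclear transport GTPase gene Ran at 1.55 and 1.27. Glycolysis had −0.00 and −0.06, fructose and polyol handling 0.09 and −0.20, and the pentose phosphate pathway 0.18 and 0.29. With the TMM shift of −0.24 in Glut5 KO and −0.13 in wildtype, the medians of oxidative phosphorylation, cholesterol and lipid synthesis and ribosome biogenesis stay above 0 in both libraries, while those of the pentose phosphate pathway and of fructose and polyol handling turn below 0 in Glut5 KO.

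The remaining lists had medians between −0.38 and 0.39. Immediate-early genes, which tissue dissociation can induce, stood at −0.38 in Glut5 KO and −0.32 in wildtype, and growth factor signals at −0.29 and −0.32. Phagocytosis and complement stood at −0.25 in both libraries. The p53 and DNA damage list stood at 0.39 and 0.19. Several lists had opposite signs in the libraries: the type I interferon response at 0.29 and −0.10, MHC class II presentation at 0.07 and −0.29, and hypoxia at 0.05 and −0.10. Under the stricter gate type I interferon stood at 0.10 and 0.05, and MHC class II at −0.30 and −0.24, with the same sign in both libraries. The TMM shift puts MHC class II and hypoxia below 0 in Glut5 KO as well.

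The last comparison set dividing Glut5 KO against dividing wildtype microglia, beside the same comparison in non-dividing cells. Of genes with at least 100 UMIs, 2.75% (228 of 8284) were at least 1.5-fold higher and 2.57% (213) at least 1.5-fold lower in dividing Glut5 KO cells. In non-dividing cells the shares were 1.72% (167 of 9690) and 3.77% (365). At the list minimum of 20 UMIs they were 6.85% and 5.99% in dividing cells and 4.08% and 7.51% in non-dividing cells. The medians over all those genes were 0.01 in dividing and −0.06 in non-dividing cells.

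In dividing cells the S phase list had a median of −0.08 and the mitosis list 0.03, with 0 of 50 and 0 of 66 members past 1.5-fold in either direction. The rule asks every dividing cell of both libraries for cycle transcripts, so these levels are a description, for cycle genes outside the gate as well. With cells of 2 cycle UMIs let in, the medians were −0.18 and −0.12, with 45 of 50 and 49 of 66 members below 0. Under the stricter gate both were 0.01. Birc5 had 316 CPM in dividing Glut5 KO and 317 CPM in dividing wildtype cells, Ube2c 448 CPM and 469 CPM, and Mki67 341 CPM and 284 CPM. Of genes that the gate does not count, Cdc20 had 95.7 CPM and 92.6 CPM, and Pclaf 286 CPM and 285 CPM. Lowest in the S phase list was Mcm5, a helicase subunit, with 80.9 CPM in Glut5 KO and 111 CPM in wildtype, a log2 ratio of −0.45 [−0.70 to −0.23].

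In non-dividing cells the same lists were lower in Glut5 KO. The S phase list had a median of −0.65, with 29 of 50 members at least 1.5-fold lower and 1 higher, and the mitosis list −0.41, with 20 of 55 lower and 0 higher, beside the 7.51% of all genes at least 1.5-fold lower. Under the stricter gate the medians were −0.53 and −0.30. Mcm2 had 12.6 CPM in non-dividing Glut5 KO and 27.7 CPM in non-dividing wildtype cells, a ratio of −1.13 [−1.43 to −0.84], against 49.6 CPM and 58.3 CPM in dividing cells (−0.23 [−0.54 to 0.07]). Mcm6 stood at −1.04 in non-dividing and −0.17 in dividing cells, and Tk1, the thymidine kinase of the salvage route, at −1.08 and 0.11. Mcm3, Mcm4, Mcm5 and Mcm7 had ratios from −0.89 to −0.71 in non-dividing cells. Nucleotide synthesis stood at −0.39 in non-dividing and −0.03 in dividing cells. With cells of exactly 2 cycle UMIs taken out of the non-dividing cells, the medians were −0.61 for S phase and −0.29 for mitosis, with 28 of 49 and 7 of 47 members at least 1.5-fold lower. Between 4000 and 16000 UMIs per cell they were −0.70 and −0.31.

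Type I interferon response genes, which antiviral signals switch on, stood higher in dividing Glut5 KO cells. The list median was 0.58, with 17 of 34 members at least 1.5-fold higher, 0 lower and 34 above 0, beside 6.85% of all genes. In non-dividing cells it was 0.21, with 2 of 34 higher. Rsad2 (viperin), which blocks viral replication, had 164 CPM in dividing Glut5 KO and 73.2 CPM in dividing wildtype cells, a ratio of 1.17 [0.98 to 1.36], and was present in 40.8% and 26.8% of cells. That ratio was −0.10 under the stricter gate and −0.35 in male cells. Ifit3, which binds viral RNA, had 215 CPM and 118 CPM, and Isg15, a ubiquitin-like protein gene, 1114 CPM and 822 CPM. Bst2, which tethers virions, stood at 0.05 and Ifi27l2a at 0.11. The median was 0.10 under the stricter microglial gate, where 2 of 34 members were at least 1.5-fold higher, and 0.72 in female and −0.13 in male cells. With the top 8% of doublet scores removed it was 0.56, with 15 of 34 members at least 1.5-fold higher. The share of female cells and the macrophage transcripts also differed between the dividing cells of both libraries, as given above, and their part beyond these gates was not tested.

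The interferon-gamma and MHC class II lists were above 0 to a lesser degree. The interferon-gamma response, the program set by T and NK cells, had a median of 0.27 with 7 of 27 members at least 1.5-fold higher in dividing Glut5 KO cells, 0.09 in non-dividing cells and −0.11 under the stricter gate. Gbp4, an interferon-induced GTPase gene, stood at 0.96, and Cxcl9, a T cell chemokine gene, had 199.8 CPM in dividing Glut5 KO and 112 CPM in dividing wildtype cells, against 91.8 CPM and 171 CPM in non-dividing cells. The Cxcl9 ratio in dividing cells, 0.83, was −1.46 under the stricter gate and −1.80 in male cells. With the top 8% of doublet scores removed it was 1.11. MHC class II presentation had 0.27 with 2 of 15 higher, 0.01 in non-dividing cells and −0.11 under the stricter gate. H2-Eb1, a class II chain gene, had 1985 CPM in dividing Glut5 KO and 1306 CPM in dividing wildtype microglia. In dividing macrophages it had 5394 CPM in Glut5 KO and 2077 CPM in wildtype. Over female cells the medians of both lists were 0.87 and 0.71, and over male cells 0.20 and 0.26. With the top 8% of doublet scores removed they were 0.36 and 0.31.

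Homeostatic microglia genes stood at 0.21 in dividing cells, with 3 of 42 members at least 1.5-fold higher and 1 lower, and at 0.25 in non-dividing cells. Under the stricter gate it was 0.18 in dividing cells. The lower one was Slc2a5 itself, which the list holds. P2ry12 had 169.9 CPM in dividing Glut5 KO and 123 CPM in dividing wildtype cells (0.47 [0.30 to 0.64]). P2ry12 is a gene of the microglial gate, which chose the cells, so its level is a description. The highest members were Ecscr at 0.85, the adhesion receptor gene Adgrg1 at 0.77 and the small GTPase gene Rhob at 0.65. The homeostatic median was −0.08 in female and 0.56 in male cells. Csf1, a ligand of the CSF1 receptor, had 169 CPM in dividing Glut5 KO and 96.8 CPM in dividing wildtype cells, a ratio of 0.80 [0.62 to 0.98], against 0.12 in non-dividing cells. Csf1r stood at 0.24 in dividing and 0.40 in non-dividing cells. Disease-associated genes had a median of −0.01 in dividing cells, with 2 of 31 higher and 5 lower.

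Metabolic lists had medians between −0.27 and 0.13 in dividing cells. Oxidative phosphorylation had a median of −0.13, with 64 of 70 members below 0 and 1 at least 1.5-fold lower in dividing cells, and −0.27 in non-dividing cells. That member was Ndufs5, a complex I subunit gene on chromosome 4, at −0.98. Fructose and polyol handling had 0.08, with the ketohexokinase gene Khk at 0.33 [−0.08 to 0.71] and the glucose transporter gene Slc2a1 at 0.51, with 83.6 CPM in dividing Glut5 KO and 58.9 CPM in dividing wildtype cells. Glycolysis stood at 0.13, hypoxia at 0.14 (5 of 23 higher and 2 lower) and the pentose phosphate pathway at −0.16. Cholesterol and lipid synthesis stood at −0.27, with 6 of 28 members at least 1.5-fold lower and 2 higher. That median was −0.15 under the stricter gate and 0.10 in cells of 4000 to 16000 UMIs. Among its lowest members was Msmo1, an oxidase gene of cholesterol synthesis, at −1.21, with 9.39 CPM in dividing Glut5 KO and 22.1 CPM in dividing wildtype cells.

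Phagocytosis and complement (0.05), growth factor signals (0.15), immediate-early genes (0.03), replication-dependent histones (0.08), cell cycle control (−0.02), p53 response (−0.07) and ribosome biogenesis (−0.09) had medians between −0.09 and 0.15 in dividing cells. Inflammatory cytokines and chemokines had a median of 0.25 with 8 of 33 members at least 1.5-fold higher and 5 lower, and −0.19 under the stricter gate.

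**Figure D5:**
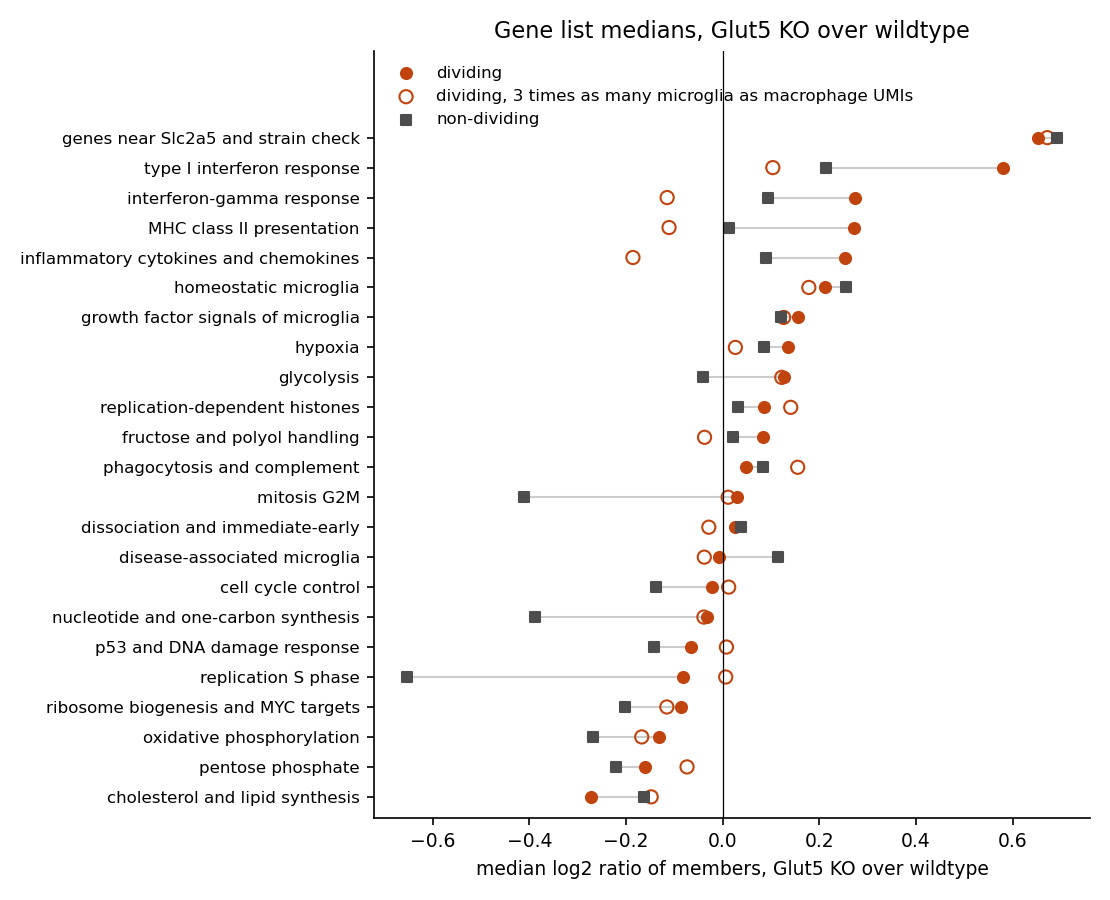
Median log2 ratio of Glut5 KO over wildtype (x axis) for each gene list (rows), in dividing microglia, in non-dividing microglia and in dividing microglia under the stricter gate. The S phase and mitosis medians lie near 0 in dividing cells and at −0.65 and −0.41 in non-dividing cells, and the type I interferon median is 0.58 in dividing cells and 0.10 under the stricter gate.

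Among single genes with at least 100 UMIs and 50 CPM, several with the largest differences in dividing cells had many of their UMIs in 1 cell. Igfbp7, a vessel-associated protein gene, had 81.4 CPM in Glut5 KO and 6.71 CPM in wildtype, with 177 of its 182 Glut5 KO UMIs in 1 cell. Il12b, the p40 chain of IL-12, had 60.3 CPM and 9.94 CPM, with 99 of 135 Glut5 KO UMIs in 1 cell. Gzmc, a granzyme gene of killer lymphocytes, had 95.7 CPM and 24.2 CPM, with 210 of 214 Glut5 KO and 161 of 195 wildtype UMIs in 1 cell each. Id3 had a smaller part in 1 cell, 82 of 269 Glut5 KO UMIs, and its ratio of 1.17 turned to −1.48 in male cells. Of the lower genes, Col1a1, a fibroblast collagen gene, also had a smaller part in 1 cell, 179 of 586 wildtype UMIs. With at least 5 cycle UMIs asked, the log2 ratio of Col1a1 turned from −1.38 to 1.98.

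Other genes had their UMIs in more cells. Complement C3, the central complement component, had 81.8 CPM in dividing Glut5 KO and 30.3 CPM in dividing wildtype cells (1.43), in 41.5% and 22.1% of cells, and 0.77 under the stricter gate. Zbtb20, a transcription factor gene, had 120.2 CPM and 52.1 CPM (1.21), in 71.8% and 41.0% of cells, and Cp (ceruloplasmin), which oxidises iron, had 91.2 CPM and 39.4 CPM (1.21), in 47.2% and 33.7%. Zbtb20 belongs to a set of 11 genes picked in earlier work for such values in these libraries, so its ratio is no independent evidence. Cxcl13, which draws B cells, had 906 CPM and 361 CPM in dividing cells (1.33), against 360 CPM and 462 CPM in non-dividing cells. Its ratio in dividing cells was 0.57 in female cells and 0.61 in cells of 4000 to 16000 UMIs. It was 1.33 in male cells and 1.66 with no macrophage gate UMI. In cells of 4000 to 16000 UMIs the Cp ratio was 0.37, and in male cells it was 1.62. Ccl8, a chemokine gene, stood at 1.14, with UMIs in 11.3% and 9.27% of cells, but at −0.23 with no macrophage gate UMI, −0.085 in cells of 4000 to 16000 UMIs and −2.0 in male cells. Eno1b stood at 1.09, in 47.2% and 26.6% of cells, and at 0.57 under the stricter gate. Eno1b closely resembles the enolase gene Eno1, so its reads may be split between them.

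Among the genes lower in dividing Glut5 KO cells were several of macrophages. Mrc1, the mannose receptor of border-associated macrophages, had 19.2 CPM in Glut5 KO and 70.1 CPM in wildtype (−1.85), and Pf4, a chemokine gene of the same cells, 20.6 CPM and 58.5 CPM (−1.49). In dividing macrophages Mrc1 stood at 39.0 CPM in Glut5 KO and 93.8 CPM in wildtype, and Pf4 at 43.0 CPM and 71.7 CPM. Under the stricter gate the microglial ratios were −1.20 for Mrc1 and −0.74 for Pf4, and in female cells −0.40 and 0.78. Ccr1, a chemokine receptor gene, stood at −1.12 and Stab1, a scavenger receptor gene, at −1.08, with 61.7 CPM and 131 CPM, and under the stricter gate they were −0.61 and −0.48. The neutrophil chemokine gene Cxcl2 had 55.9 CPM and 171 CPM, and the heat shock gene Hspa1b 75.5 CPM and 163 CPM (−1.10, and −0.11 in cells of 4000 to 16000 UMIs). Cxcl1 had no UMI in dividing Glut5 KO cells and 92 in dividing wildtype cells, at least 8.52-fold lower against a floor of 3 counts over the group. Postn, Col3a1 and Nrep stood at −1.11, −1.06 and −1.04, but from 5 cycle UMIs Postn was 0.33 and Col3a1 0.27, and in male cells Nrep was 0.11. In cells with no monocyte or macrophage gate UMI, Ccr1 turned to 0.53 and Cxcl2 to 0.03.

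Of genes on chromosome 4 near Slc2a5, Cep85, Sh3bgrl3 and Fam167b differed in the same direction in dividing and non-dividing cells. Cep85, a centrosome gene 16.0 Mb from Slc2a5, had 25.03 CPM in dividing Glut5 KO and 117 CPM in dividing wildtype cells, a ratio of −2.21, against −3.34 in non-dividing cells. Its neighbour Sh3bgrl3, a small thioredoxin-fold protein gene, had 661 CPM and 1574 CPM, a ratio of −1.25, against −1.33. Fam167b, 20.5 Mb away, had 65.3 CPM and 22.7 CPM, a ratio of 1.52 [1.20 to 1.84], against 1.5, and was present in 54.2% of dividing Glut5 KO and 22.7% of dividing wildtype cells. Stmn1, which takes microtubules apart and is itself a mitosis list gene, differed between states, with 719 CPM and 700.1 CPM in dividing cells (0.04) and 44.9 CPM and 97.9 CPM in non-dividing cells (−1.12). Dcstamp, a cell fusion gene on chromosome 15, had 36.2 CPM in dividing Glut5 KO and 1.74 CPM in dividing wildtype cells. This set of 11 genes was picked in earlier work for such values in these libraries, so its median of 0.65 in dividing cells and 0.69 in non-dividing cells is no independent evidence. Id3, also on chromosome 4 and 14.0 Mb from Slc2a5, stood at 1.17 in all dividing cells and at −1.48 in male dividing cells. Genotype and strain background cannot be told apart here.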

How the data were processed

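Per the labels' protocols, libraries were 10x 5′ v2. The deposited matrices hold raw UMI counts for each gene and cell barcode. Cell Ranger 3.1.0 and mm10 are named in the submitters' processing notes, and Cell Ranger 7.0.1 in the headers of the matrix files. The use of intron reads is not stated.

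Counts were summed per library and state, divided by the group's total UMIs (CPM) and compared as log2 ratios with 0.5 added to each count. A gene was called at 1.5-fold between genotypes and at 2-fold between states, with at least 100 UMIs. The 23 lists took members with at least 20 UMIs. Levels have exact Poisson, shares Clopper-Pearson and ratios conditional binomial 95% intervals, which cover counting error only. Limits and bounds for a count of 0 use 3 counts.

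The named genes were the 15 highest and 15 lowest between states by the lower of both libraries' ratios, the 12 highest and 12 lowest between genotypes (at least 100 UMIs and 50 CPM), the 10 with the largest difference of ratios between states, and each list's 3 highest and 3 lowest members. Gate genes, markers, genes of known role and genes behind a count were named beside them, some after their values were seen. Members and lists were chosen with earlier results of these data known. Doublets were scored with Scrublet (scanpy 1.11.5) and kept: its automatic threshold did not work, so the top 8% were counted. TMM factors came from edgeR 4.0.16. Gene positions follow GENCODE on GRCm38. The ratios were tested on simulated data with known fold changes. Alternatives were other depths, thresholds, scalings, sexes and gates, and removal of the top 8% of doublet scores. The gates with no macrophage UMI and without barcodes held by both libraries were added after seeing the data. Some genes that these rules name are not reported here.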

Additional observations from a re-analysis of the deposited data

Results flagged for a closer look

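Of the named genes, 4 had Glut5 KO over wildtype ratios of opposite sign in dividing and non-dividing microglia with both counting intervals past 1.5-fold. These differences were not tested, as there was 1 library per genotype. Gdf3, a growth factor gene of the TGF-beta family, had 46.0 CPM in dividing Glut5 KO and 23.6 CPM in dividing wildtype cells (log2 ratio 0.97 [0.60 to 1.32]), but 7.21 CPM in non-dividing Glut5 KO and 16.2 CPM in non-dividing wildtype cells (−1.16 [−1.57 to −0.78]), a difference of 2.13. It was present in 13.4% of dividing Glut5 KO and 7.1% of dividing wildtype cells, and in male cells the ratio in dividing cells was −0.68. Gpnmb, a glycoprotein gene of lipid-laden macrophages, had 23.2 CPM in dividing Glut5 KO and 47.5 CPM in dividing wildtype cells (−1.02), but 189.8 CPM in non-dividing Glut5 KO and 59.2 CPM in non-dividing wildtype cells (1.68), a difference of −2.70. In dividing wildtype cells, 211 of its 382 UMIs came from 1 cell, and the ratio in dividing cells turned to 0.89 in cells of 4000 to 16000 UMIs, 0.16 in female cells and 0.35 from 5 cycle UMIs. Cxcl9, a T cell chemokine gene, had a ratio of 0.83 [0.67 to 0.998] in dividing and −0.90 [−1.01 to −0.79] in non-dividing cells, a difference of 1.73. The ratio in dividing cells was −1.46 under the stricter gate and 1.11 with the top 8% of doublet scores removed. Spp1 (osteopontin) had a ratio of −0.81 [−0.91 to −0.71] in dividing and 0.65 [0.62 to 0.68] in non-dividing cells, a difference of −1.46, and the ratio in dividing cells was −0.75 under the stricter gate and −0.055 in male cells.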

How the results depend on the processing

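The lower share of dividing microglia in Glut5 KO (log2 ratio −1.24) kept its direction in all 13 alternatives that gave it, and was −0.59 in female and −1.82 in male cells, −0.93 and −0.91 when cells thinned to 1000 and 2000 UMIs needed 1 cycle UMI. Between genotypes in dividing cells, the S phase median (−0.08) ranged from −0.18 from 2 cycle UMIs to 0.01 under the stricter gate, and the mitosis median (0.03) from −0.12 from 2 to 0.05 from 5 cycle UMIs. The log2 ratio of the shares of dividing cells with more S phase than G2/M UMIs (−0.18) ranged from −0.70 in male cells to 0.45 with no macrophage gate UMI. Counts of genes past a fold depended on the filter. Genes at least 2-fold higher between states (600) were 360 in cells of 4000 to 16000 UMIs, 385 in male cells and 1742 without a filter, and lower ones (97) were 64 with no macrophage gate UMI, 53 with 5 counts added, 156 with TMM, 26 in male cells, 58 under the stricter gate and 283 without a filter. Between genotypes in dividing cells, higher genes (228) were 431 from 50 UMIs, 517 in male cells, 573 by the mean of cell shares and 2967 without a filter, and lower ones (213) were 384, 582, 343 and 1688, and 115 with 5 counts added. In non-dividing cells, higher genes (167) were 283, 269, 305 and 2636, and 100 with no macrophage gate UMI, and lower ones (365) were 572 from 50 UMIs and 3414 without a filter.

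The type I interferon median in dividing cells (0.58) was 0.20 with no macrophage gate UMI, 0.25 in cells of 4000 to 16000 UMIs, −0.13 in male cells and 0.10 under the stricter gate. It stayed at 0.56 with the top 8% of doublet scores removed. In non-dividing cells (0.21) it was 0.045 with no macrophage gate UMI, 0.46 in female and −0.15 in male cells. The homeostatic median between genotypes in dividing cells (0.21) was 0.33 from 2 cycle UMIs, −0.085 in female and 0.56 in male cells. Between states it was, in Glut5 KO (−0.58), −0.33 with no macrophage gate UMI, −0.82 with TMM, −0.30 in male cells and −0.37 under the stricter gate, and in wildtype (−0.53) −0.33, −0.65 with TMM and −0.40 under the stricter gate.

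Of the named genes' values, 876 stayed within the counting interval of the reported value, 304 lay outside it and 31 past a fold turned sign. Turned between genotypes in dividing cells were, with no macrophage gate UMI, Ccl8 (−0.23), Ccr1 (0.53), Cxcl2 (0.027), Cxcl9 (−2.14) and Il12b (−3.87). In cells of 4000 to 16000 UMIs they were Ccl8 (−0.085), Cxcl2 (0.15), Cxcl9 (−0.065), Gpnmb (0.89) and Saa3 (0.41). In male cells they were Ccl8 (−2.0), Cxcl9 (−1.80), Gdf3 (−0.68), Gzmc (−5.08), Id3 (−1.48), Il12b (−3.03), Nrep (0.11) and Rsad2 (−0.35), and in female cells Ccr1 (0.60), Gpnmb (0.16), Mbp (−0.012) and Pf4 (0.78). From 5 cycle UMIs they were Col1a1 (1.98), Col3a1 (0.27), Gpnmb (0.35) and Postn (0.33), from 2 Gzma (0.88) and Saa3 (0.69), and under the stricter gate Cxcl9 (−1.46), Il12b (−1.54) and Rsad2 (−0.10). The causes were not tested. The alternatives with no macrophage gate UMI and without shared barcodes were chosen after seeing the data. No paired analysis was possible because each genotype has 1 library. With 142 dividing Glut5 KO cells, genes under about 20 UMIs are too shallow to compare.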

Other observations

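Beyond Gdf3 and Gpnmb, the widest differences between states in the Glut5 KO over wildtype ratio belonged to genes of other cell types or of few cells. Mgl2, a lectin gene of dendritic cells and macrophages, had 34.4 CPM in dividing Glut5 KO and 32.8 CPM in dividing wildtype cells, against 1.98 CPM and 13.6 CPM in non-dividing cells. Cd300e, a receptor gene of patrolling monocytes, had 22.8 CPM and 22.1 CPM, against 2.27 CPM and 7.77 CPM. Saa3, an acute-phase gene, had 6.70 CPM and 11.6 CPM in dividing cells, against 53.5 CPM and 14.5 CPM in non-dividing cells. Gzma, a granzyme gene of killer lymphocytes, had 2 UMIs in dividing Glut5 KO and 150 in dividing wildtype cells, 73 of them in 1 cell. Mbp and Cryab, genes of oligodendrocytes and glia, were also among these 10.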
